A study of Mus musculus with 6 samples.

Results

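The retina of E15.5 mouse embryos was compared with the retina of E13.5 embryos by PA-seq, an assay that sequences the 3′ ends of polyadenylated RNA and counts the reads (tags) that end at each poly(A) site. These were 2 of the 6 samples of a developmental series, and 4 of its 12 count columns, since each sample was deposited as 2 columns. Both samples were retina of the C57BL/6J strain, with no mutation, transgene or treatment given in the labels. The other stages of the series, E18.5, P0, P6 and P21, are used here only to set levels beside those at E15.5 and E13.5. The labels do not say how many embryos went into a sample or what the columns of a stage stand for. With 1 sample per stage there is no biological replicate, so no difference below has a significance test. A difference is called instead by its size and by its presence in the first and in the second columns of both stages. The counts of E15.5 were 1966067 and 1895788 tags, and those of E13.5 were 2039939 and 1773297 tags.

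In this window of eye development, dividing retinal progenitors still make up much of the tissue, while the first neurons leave the cell cycle. Retinal ganglion cells, cone photoreceptors, horizontal cells and amacrine cells are born early, and most rods, bipolar cells and Müller glia are born later. Many genes end at more than 1 poly(A) site, and the choice of the site decides how much 3′ untranslated region (3′ UTR) the messenger RNA carries, which is known to bear on its stability, its translation and where it lies in the cell. Levels are given below as CPM, counts scaled to library size by the TMM method, with the value of the first column before that of the second. In bulk tissue, fewer cells of a type and less RNA per cell cannot be told apart.

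The defining genes of the neural retina were present in both samples. Atoh7, the bHLH factor that progenitors need to make ganglion cells, stood at 404.6 and 428 CPM at E15.5, against 519.6 and 564 CPM at E13.5, and Crx, a homeobox gene of photoreceptor precursors, at 318 and 212 CPM at E15.5, against 187 and 87.2 CPM at E13.5. Other tissues of the eye were present too. The 25 lens genes with tags summed to 4130.3 and 4475 CPM at E15.5, against 1456 and 1360.3 CPM at E13.5. The 11 red blood cell genes with tags summed to 769 and 703 CPM at E15.5, against 1013 and 1119.9 CPM at E13.5. Sums here and below are over all members of a list that have tags. Pigment epithelium and melanocyte genes summed to 357 and 275 CPM at E15.5, against 316 and 271 CPM at E13.5. Microglia and macrophage genes summed to 242 and 248 CPM at E15.5, against 244 and 239 CPM at E13.5.

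Some features of the libraries move with the comparison and are given before it. First, the E15.5 columns held fewer tags at AT-rich 3′ ends. Sites whose preceding 200 transcript bases had under 30% GC took 4.39% and 3.96% of the tags with a GC value at E15.5, against 5.58% and 5.24% at E13.5. The other stages had 5.87% and 5.52% at E18.5, 4.47% and 4.12% at P0, 5.17% and 4.74% at P6 and 4.99% and 4.73% at P21, so that E15.5 and P0 were the lowest. Second, the first columns of both stages carried more RNA of genes of the mature retina than the second columns. Over 124 genes with at least 100 CPM in both P21 columns and at least 10-fold less in the second P0 column, the median was 35.3 CPM in the first and 3.23 CPM in the second column at E15.5, against 11.1 and 1.72 CPM at E13.5. Only the second P0 column was used in this choice, which favours genes that are low in second columns. The size of the gap between columns may therefore be overstated. In addition, the lens genes were more abundant at E15.5, as the sums above show. Of the 124 genes, 22 were among those called higher below, and without the 124 genes 391 were higher and 212 lower. What these features contributed to the differences below was not tested.

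Of 12579 genes tested, 413 (3.28%) were at least 2-fold higher and 212 (1.69%) at least 2-fold lower at E15.5 in both columns, 625 (4.97%) in all. The genes that were higher included lens crystallins, transcription factors of amacrine and ganglion cells, cone phototransduction genes and synaptic genes. Those that were lower included embryonic globins, the Wnt modulator Sfrp2, ciliary margin genes and the stem cell genes Lin28a and Lin28b. They also included Pou4f2 and Dlx2 of the ganglion cell list, so that list had calls in both directions, 5 higher and 2 lower of 28 tested. A gene needed at least 20 tags over both columns of the stage where it was higher, and column counts under 3 tags, which correspond to 1.51 to 1.72 CPM, were set to 3. The median log2 ratio of E15.5 to E13.5 over all genes tested was 0.01 by the first and 0.02 by the second columns. Among the 8082 genes with at least 100 tags at both stages, the median absolute log2 ratio between the stages was 0.19 by the first and 0.20 by the second columns. The same measure between the columns of 1 stage was 0.12 at E15.5 and 0.11 at E13.5. The columns of 1 stage come from 1 sample, so they do not show how far separate retina samples of a stage would differ. Intervals of single genes below are exact conditional binomial intervals of the ratio of summed tags. They cover counting error only, treat every tag of both columns as independent, and hold no spread between retinas. PCR reads are not independent molecules, so the intervals can be too narrow even for counting error.

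**Figure D1:**
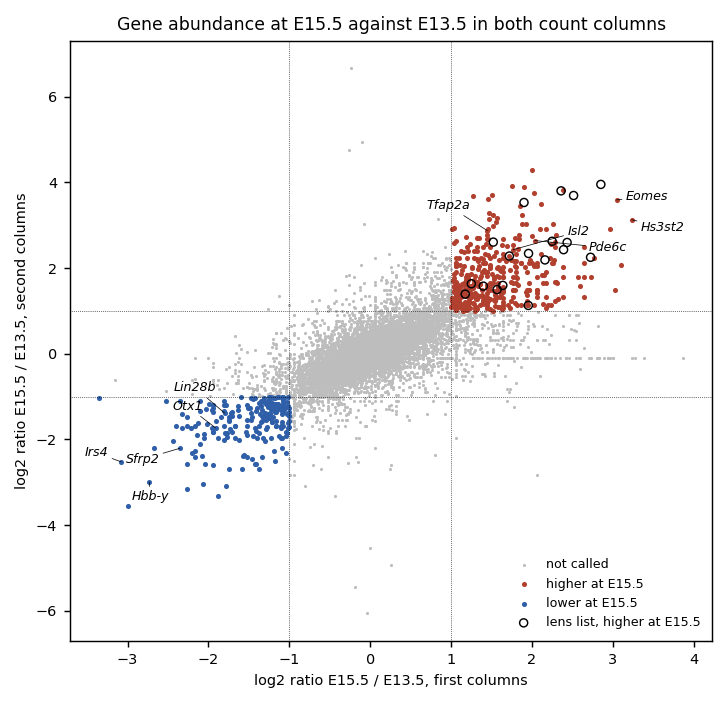
The log2 ratio of E15.5 to E13.5 in the second columns is plotted against that in the first columns, with 1 point per gene tested. Red points and open circles together are the 413 genes higher, and blue points the 212 genes lower, at E15.5 in both columns. Open circles are the 18 lens genes that were higher, and lens genes not called are grey. Dotted lines mark 2-fold, and the horizontal row of grey points holds genes under 3 tags in both second columns.

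The called genes kept their place at later stages to different degrees. The median level of the 413 higher genes was 22.1 and 14.5 CPM at E15.5, against 7.56 and 4.02 CPM at E13.5, and it stood at 23.8 and 21.4 CPM at E18.5 and 42.2 and 42.7 CPM at P21. The median of the 212 lower genes was 6.84 and 5.91 CPM at E15.5, against 18.1 and 16.9 CPM at E13.5. For them it was 10.9 and 9.78 CPM at E18.5 and 6.72 and 6.15 CPM at P0. The lower genes thus stood, in the middle of the group, higher again at E18.5 than at E15.5. Both groups were chosen by their E15.5 and E13.5 values, which fixes the direction between these stages. Part of the rise of the lower genes at E18.5 can come from that choice alone.

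Genes of dividing cells were called about as often as genes in general, of which 4.97% passed. Of 24 retinal progenitor genes tested, 0 were higher and 1 (4.17%) was lower, with a median log2 ratio of -0.28 by the first and -0.36 by the second columns. That 1 gene was Sfrp2, which encodes a secreted modulator of Wnt signalling. It stood at 132 and 154 CPM at E15.5, against 672 and 709 CPM at E13.5, 0.207 times the E13.5 level (95% interval 0.188 to 0.227), with both E15.5 columns far below both E13.5 columns. It was at 89.3 and 66.1 CPM at E18.5 and 42.2 and 20.1 CPM at P0. Fgf15, a growth factor of the progenitors, stood at 385 and 439 CPM at E15.5, against 452 and 507 CPM at E13.5, and Ccnd1, the cyclin that drives their division, at 837 and 529 CPM at E15.5, against 785 and 847 CPM at E13.5. Hes1, an effector of Notch signalling, stood at 129 and 133 CPM at E15.5, against 186 and 191 CPM at E13.5, while Hes5, another one, stood at 242 and 281 CPM at E15.5, against 238 and 252 CPM at E13.5. Fgf15, Hes1 and Hes5 were chosen after their values were seen, as were Atoh7 and Crx above.

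Of 31 cell cycle and DNA replication genes, 0 were higher and 1 (3.23%) was lower, with a median log2 ratio of -0.25 by the first and -0.28 by the second columns. The lower gene was Cdk2, a kinase of the start of DNA replication, at 16.8 and 11.8 CPM at E15.5, against 33.8 and 30.4 CPM at E13.5. Its call was lost when log2 ratios were centred within deciles of genes by GC content. Mcm7, a subunit of the replicative helicase, stood at 313 and 350.5 CPM at E15.5, against 374 and 398 CPM at E13.5. Mki67, the proliferation marker, stood at 246 and 319 CPM at E15.5, against 231 and 286 CPM at E13.5, so that its columns of the same stage differed more than its stages did. It was chosen after its values were seen.

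Among 22 neurogenic bHLH and Notch ligand genes, 0 were higher and 1 was lower, with a median log2 ratio of 0.08 by the first and 0.07 by the second columns. Gadd45a, a stress-responsive gene of cells leaving the cycle, was the lower one, at 37.9 and 29.6 CPM at E15.5, against 98.3 and 94.7 CPM at E13.5. Hes6, a relative of the Notch effectors that favours neuronal differentiation, stood at 652 and 680.1 CPM at E15.5, against 559 and 587 CPM at E13.5. Neurog2, a bHLH factor of progenitors, was not called and stood at 82.1 and 72.04 CPM at E15.5, against 79.6 and 78.6 CPM at E13.5. Neurog1, a relative that is not on the list, did pass, at 10.5 and 9.14 CPM at E15.5, against 5.04 and 2.87 CPM at E13.5. Neurog2 and Neurog1 were chosen after their values were seen.

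The rim of the retina and the pathways that pattern it gave more of the lower genes. Of 12 ciliary margin genes, 0 were higher and 3 (25%) were lower, with a median log2 ratio of -0.81 by the first and -0.80 by the second columns. The 13 members with tags summed to 644 and 668 CPM at E15.5, against 1129.8 and 1111 CPM at E13.5. Otx1, a homeobox gene of the ciliary margin, stood at 14.7 and 15.6 CPM at E15.5, against 55.4 and 51.6 CPM at E13.5, 0.282 times the E13.5 level (95% interval 0.207 to 0.381), and 10.5 and 4.19 CPM at E18.5. Rdh10, an enzyme of retinoic acid synthesis, stood at 41.6 and 26.3 CPM at E15.5, against 94.2 and 67.1 CPM at E13.5, but it was back at 88.05 and 87.98 CPM at E18.5. Zic1, a zinc finger gene of the retinal rim, stood at 55.2 and 73.1 CPM at E15.5, against 132 and 148 CPM at E13.5, and its call was lost when ratios were centred by GC content.

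Of 30 genes of Wnt, FGF and hedgehog signalling, 1 was higher and 5 (16.7%) were lower, with a median log2 ratio of -0.06 by the first and 0.01 by the second columns. Fgf8, a growth factor of the early optic cup, stood at 4.74 and 4.301 CPM at E15.5, against 21.2 and 22.9 CPM at E13.5. The Wnt members among the lower genes were Sfrp2, the receptor gene Fzd7 and the transcription factor genes Lef1 and Tcf7l1. Fzd7 stood at 3.16 and 4.301 CPM at E15.5, against 7.56 and 11.5 CPM at E13.5, with only 6 and 8 tags at E15.5, against 15 and 20 at E13.5, and its call was lost when ratios were centred by GC content. Lef1 stood at 12.6 and 8.06 CPM at E15.5, against 28.2 and 24.1 CPM at E13.5. Tcf7l1 stood at 48.4 and 52.7 CPM at E15.5, against 103 and 107 CPM at E13.5, just past the 2-fold limit. Outside the list, Tcf7, a relative of Lef1, stood at 6.31 and 4.84 CPM at E15.5, against 22.2 and 19.5 CPM at E13.5, and Lgr5, a receptor that strengthens Wnt signals, at 15.3 and 11.3 CPM at E15.5, against 44.4 and 40.2 CPM at E13.5. In hedgehog signalling, Hhip, which encodes a protein that binds hedgehog ligands, was higher, at 5.79 and 10.2 CPM at E15.5, against 2.52 and 2.87 CPM at E13.5. Its ligand Shh stood at 18.9 and 22.04 CPM at E15.5, against 13.6 and 18.4 CPM at E13.5 and the target gene Gli1 at 168 and 192 CPM at E15.5, against 124 and 143 CPM at E13.5, and neither was called. Lef1, Tcf7l1, Tcf7, Lgr5, Shh and Gli1 were chosen after their values were seen.

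Genes of embryonic growth and developmental timing were called in both directions. Of 18 tested, 1 was higher and 3 (16.7%) were lower, with a median log2 ratio of -0.39 by the first and -0.47 by the second columns. Lin28b, which encodes an RNA-binding protein that blocks let-7 microRNAs, stood at 11.6 and 14.5 CPM at E15.5, against 40.3 and 37.9 CPM at E13.5, 0.333 times the E13.5 level (95% interval 0.236 to 0.463). Its relative Lin28a stood at 2.105 and 2.15 CPM at E15.5, against 11.1 and 6.88 CPM at E13.5, close to the floor, with 4 and 4 tags at E15.5, against 22 and 12 at E13.5. Dlk1, an imprinted gene of embryonic growth, was as sparse, with 3 and 6 tags at E15.5, against 17 and 23 at E13.5. Nfia, a transcription factor of late progenitors and glia, was the higher one, at 35.8 and 31.2 CPM at E15.5, against 15.6 and 10.3 CPM at E13.5, and 62.6 and 61.9 CPM at E18.5. Igf2bp1, an RNA-binding protein gene of embryonic tissue that was chosen after its values were seen, was not called, at 174 and 184 CPM at E15.5, against 248 and 272 CPM at E13.5.

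Ganglion cell genes differed among themselves. Of 28 tested, 5 (17.9%) were higher, 2 (7.14%) were lower and 21 were not called, and the median log2 ratio was 0.02 by the first and -0.05 by the second columns. The sum of the 29 members with tags was nearly level, with 3917 and 4083 CPM at E15.5, against 4032 and 4060.3 CPM at E13.5. Eomes, a T-box gene needed by a subset of ganglion cells that includes the light-sensitive ones, stood at 91.5 and 96.8 CPM at E15.5, against 11.1 and 8.03 CPM at E13.5. Both E15.5 columns lay far above both E13.5 columns, a 9.75-fold (95% interval 6.91 to 14.1) difference, and Eomes came down to 51.7 and 55.9 CPM at E18.5. Isl2, a LIM-homeobox gene of ganglion cells that project to the other side of the brain, stood at 66.8 and 86.5 CPM at E15.5, against 19.6 and 16.1 CPM at E13.5, 4.26-fold (95% interval 3.26 to 5.64). Pou4f1 stood at 194 and 216 CPM at E15.5, against 86.7 and 82.04 CPM at E13.5, and Pou4f3 at 21.1 and 19.4 CPM at E15.5, against 7.56 and 4.59 CPM at E13.5. Both are relatives of Pou4f2, the POU-domain factor that acts early in ganglion cells, and Pou4f2 itself was lower, at 6.31 and 9.68 CPM at E15.5, against 31.8 and 32.1 CPM at E13.5. It stood at 16.96 and 17.2 CPM at E18.5 and 4.48 and 3.88 CPM at P0. No GC value was known for Pou4f2, so centring by GC content could not change its call. Dlx2, a homeobox gene of newborn ganglion and amacrine cells, was lower too, at 8.95 and 10.2 CPM at E15.5, against 36.3 and 31.6 CPM at E13.5. Thy1, a surface protein of ganglion cells, stood at 47.4 and 16.7 CPM at E15.5, against 17.1 and 1.15 CPM at E13.5, and its first E13.5 column lay above its second E15.5 column. Isl1, Nefl and Tubb3, genes of ganglion cells and their axons, were not called. Isl1 stood at 172 and 159 CPM at E15.5, against 236 and 206 CPM at E13.5, Nefl at 420.4 and 417 CPM at E15.5, against 471 and 467 CPM at E13.5 and Tubb3 at 477 and 530.1 CPM at E15.5, against 514 and 566 CPM at E13.5.

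Further genes of ganglion cells were chosen after their values were seen, so their direction says nothing about ganglion cell genes as a group. Opn4, which encodes melanopsin, the light sensor of the light-sensitive ganglion cells, stood at 17.4 and 21.5 CPM at E15.5, against 5.04 and 5.16 CPM at E13.5, 3.81-fold (95% interval 2.27 to 6.68), and 33.1 and 40.97 CPM at E18.5. Irx1, an Iroquois homeobox gene of ganglion cells, stood at 19.5 and 23.6 CPM at E15.5, against 4.03 and 5.16 CPM at E13.5, and its relative Irx4 at 77.9 and 82.8 CPM at E15.5, against 32.8 and 30.98 CPM at E13.5. Tbx20, a T-box gene, stood at 7.37 and 10.2 CPM at E15.5, against 3.02 and 4.59 CPM at E13.5. Slc6a4, the serotonin transporter that developing ganglion cells use transiently, stood at 10.5 and 24.2 CPM at E15.5, against 2.02 and 0 CPM at E13.5, with 20 and 45 tags at E15.5, against 4 and 0 at E13.5. In each of these 5 genes both E15.5 columns lay above both E13.5 columns. Pou4f1, Pou4f3, Thy1, Isl1, Nefl and Tubb3 above were chosen after their values were seen as well.

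Of 23 photoreceptor precursor genes tested, 7 (30.4%) were higher, 0 were lower and 16 were not called, with a median log2 ratio of 1.01 by the first and 0.71 by the second columns. The summed level was 3503 and 1366 CPM at E15.5, against 1768 and 725 CPM at E13.5, so that the columns of a stage lay further apart than the stages. Pde6c, a cone phosphodiesterase gene that is not on the list, stood at 53.7 and 21.5 CPM at E15.5, against 13.1 and 3.44 CPM at E13.5, 4.398-fold (95% interval 2.98 to 6.67). Tulp1, which photoreceptors need for protein transport to the outer segment, stood at 153 and 50.5 CPM at E15.5, against 61.98 and 14.3 CPM at E13.5. Sall3, a zinc finger gene of cones and horizontal cells, stood at 10.5 and 11.8 CPM at E15.5, against 2.02 and 3.44 CPM at E13.5, with like values in both columns. Among genes with unlike columns, Opn1sw, the short-wavelength cone opsin, stood at 129 and 6.45 CPM at E15.5, against 47.4 and 1.15 CPM at E13.5, and Aipl1, a chaperone of the phosphodiesterase, at 108 and 11.3 CPM at E15.5, against 31.2 and 0.574 CPM at E13.5. For Tulp1, Opn1sw and Aipl1 the first E13.5 column lay above the second E15.5 column, so the stages overlap although both column ratios pass.

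Rxrg, a nuclear receptor of cones, stood at 74.2 and 80.6 CPM at E15.5, against 36.8 and 34.4 CPM at E13.5. Gnat2, the cone transducin, stood at 62.6 and 44.6 CPM at E15.5, against 15.6 and 2.29 CPM at E13.5, and Gnb3, its beta subunit, at 99.4 and 57.5 CPM at E15.5, against 48.4 and 7.46 CPM at E13.5. Cnga3 and Cngb3 encode the cone cyclic-nucleotide channel, with Cnga3 at 9.47 and 4.301 CPM at E15.5, against 1.01 and 1.15 CPM at E13.5 and Cngb3 at 16.3 and 11.8 CPM at E15.5, against 5.54 and 2.29 CPM at E13.5. Columns were far apart for Pde6h, a further subunit of the cone phosphodiesterase, at 53.7 and 3.76 CPM at E15.5, against 24.7 and 1.15 CPM at E13.5, and for Rbp3, the retinoid-binding protein between the photoreceptors and the pigment epithelium, at 339 and 73.1 CPM at E15.5, against 168 and 9.75 CPM at E13.5. For both the first E13.5 column lay above the second E15.5 column. Among the transcription factors that set photoreceptor fate, Otx2 stood at 163 and 148 CPM at E15.5, against 115 and 101 CPM at E13.5, and Crx, given above, was 1.895-fold (95% interval 1.703 to 2.11) its E13.5 level with the columns added. Prdm1, which keeps precursors from becoming bipolar cells, stood at 47.9 and 58.1 CPM at E15.5, against 31.8 and 35.6 CPM at E13.5, and Thrb, the thyroid hormone receptor of M cones, at 20.5 and 23.1 CPM at E15.5, against 24.7 and 18.4 CPM at E13.5. None of these 4 factors passed 2-fold in both columns. Gnb3 lost its call when ratios were centred by GC content, and Rxrg and Rbp3 when TMM was computed over the 4 columns alone. These genes, from Rxrg to Thrb, were chosen after their values were seen.

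Of 17 amacrine cell genes tested, 5 (29.4%) were higher and 0 were lower, with a median log2 ratio of 0.80 by the first and 0.32 by the second columns. The AP-2 factors Tfap2a and Tfap2b, which postmitotic amacrine cells use, stood out. Tfap2a stood at 78.4 and 71.5 CPM at E15.5, against 28.7 and 9.75 CPM at E13.5, 3.78-fold (95% interval 2.91 to 4.95), and 143 and 144 CPM at E18.5. Tfap2b stood at 95.2 and 75.8 CPM at E15.5, against 39.8 and 18.9 CPM at E13.5. Ptf1a, the factor that commits cells to amacrine and horizontal fates, stood at 39.99 and 47.9 CPM at E15.5, against 15.6 and 15.5 CPM at E13.5, and by P0 it was down to 19.2 and 13.6 CPM. Slc32a1, the vesicular transporter of GABA and glycine, stood at 72.6 and 50 CPM at E15.5, against 21.7 and 10.9 CPM at E13.5, and Slc6a9, a glycine transporter chosen after its values were seen, at 59.98 and 36.6 CPM at E15.5, against 27.2 and 14.3 CPM at E13.5. Of 5 horizontal cell genes tested, 0 were called in either direction, with a median log2 ratio of 0.49 by the first and -0.32 by the second columns. Prox1, a homeobox gene of horizontal cells that progenitors also express, stood at 104 and 90.3 CPM at E15.5, against 72.1 and 61.4 CPM at E13.5. Tpm3, a tropomyosin gene, stood at 118 and 120.4 CPM at E15.5, against 84.2 and 89.5 CPM at E13.5.

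The columns were unlike for the bipolar cell genes, most of which belong to later stages. Of 12 bipolar cell genes, 3 (25%) were higher and 0 were lower, with a median log2 ratio of 1.29 by the first and -0.09 by the second columns. Lhx4, a LIM-homeobox gene of bipolar cells and cone precursors, stood at 38.9 and 34.4 CPM at E15.5, against 17.1 and 5.16 CPM at E13.5. Pcp2, a protein of ON bipolar cells, stood at 68.4 and 8.06 CPM at E15.5, against 14.6 and 0.574 CPM at E13.5, and Prkca, a kinase of rod bipolar cells, at 72.6 and 37.1 CPM at E15.5, against 27.7 and 8.03 CPM at E13.5. For Pcp2 the first E13.5 column again lay above the second E15.5 column. Of 15 Müller glia genes, 1 was higher and 0 were lower, with a median log2 ratio of 0.38 by the first and 0.22 by the second columns. Kcnj10, a potassium channel, was that gene, with only 15 and 9 tags at E15.5, against 5 and 2 at E13.5. Dkk3, an abundant member, stood at 679 and 672 CPM at E15.5, against 587 and 574 CPM at E13.5.

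Among synaptic genes every call was in the higher direction. Of 30 synapse and transmitter release genes tested, 7 (23.3%) were higher and 0 were lower, with a median log2 ratio of 0.69 by the first and 0.73 by the second columns. Dlg2, a scaffold protein of the postsynaptic density, stood at 108 and 76.9 CPM at E15.5, against 34.8 and 13.2 CPM at E13.5, 3.75-fold (95% interval 2.97 to 4.77). Grin1, the common subunit of NMDA receptors, stood at 45.2 and 33.9 CPM at E15.5, against 14.6 and 8.61 CPM at E13.5, and Gria2, a subunit of AMPA receptors, at 34.2 and 18.3 CPM at E15.5, against 12.6 and 6.88 CPM at E13.5. Syn2, a synaptic vesicle protein, stood at 19.5 and 10.8 CPM at E15.5, against 7.56 and 2.29 CPM at E13.5. Cplx1, which binds the release machinery, stood at 72.1 and 72.04 CPM at E15.5, against 23.2 and 30.98 CPM at E13.5. Snap25 and Syt1, core genes of release, were not called, with Snap25 at 118 and 55.9 CPM at E15.5, against 64 and 45.9 CPM at E13.5 and Syt1 at 154 and 105 CPM at E15.5, against 101 and 72.9 CPM at E13.5. Cplx1, Snap25 and Syt1 were chosen after their values were seen.

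Axon growth genes gave no call. Of 25 axon growth and cytoskeleton genes, 0 were called in either direction, and the median log2 ratio was 0.06 by the first and 0.00 by the second columns. Stmn1, a microtubule regulator, stood at 949 and 1147 CPM at E15.5, against 797 and 838 CPM at E13.5, and Marcksl1, an actin regulator, at 838 and 853 CPM at E15.5, against 1137 and 1102 CPM at E13.5. Of 26 axon guidance genes, 3 (11.5%) were higher and 1 (3.85%) was lower, with a median log2 ratio of -0.06 by the first and 0.07 by the second columns. Sema3e, a semaphorin, stood at 17.4 and 14.5 CPM at E15.5, against 4.03 and 2.87 CPM at E13.5, Chl1, a cell adhesion molecule, at 25.8 and 23.6 CPM at E15.5, against 8.57 and 5.16 CPM at E13.5, and Robo3, a Slit receptor family member, at 14.2 and 12.4 CPM at E15.5, against 5.54 and 4.02 CPM at E13.5. Ntn1, the netrin that guides ganglion cell axons out at the optic disc, was lower, at 4.74 and 4.301 CPM at E15.5, against 16.1 and 15.5 CPM at E13.5.

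The housekeeping lists are read against the 3.28% of all genes that were higher and the 1.69% that were lower. Of 38 cytosolic ribosomal protein genes, 0 were called in either direction, with a median log2 ratio of -0.09 by the first and -0.13 by the second columns. The 40 members with tags summed to 8493 and 8372 CPM at E15.5, against 9453 and 9758 CPM at E13.5. Among them, Rpl32 and Rps15 held few or no tags in the second E15.5 column, as the last paragraph gives, which lowers the sum of that column. Rpl14 stood at 1810.5 and 1989 CPM at E15.5, against 2296 and 2372 CPM at E13.5 and Rpl4 at 587 and 581 CPM at E15.5, against 637 and 679 CPM at E13.5. Of 30 nuclear oxidative phosphorylation genes, 0 were higher and 1 (3.33%) was lower, with a median log2 ratio of 0.05 by the first and -0.03 by the second columns. This was Ndufs1, a subunit of complex I, at 30.5 and 18.8 CPM at E15.5, against 61.98 and 57.4 CPM at E13.5, and it lost its call when ratios were centred by GC content. Atp5a1, a subunit of ATP synthase, stood at 538 and 523 CPM at E15.5, against 548 and 539 CPM at E13.5. Of 25 hypoxia and glycolysis genes, 2 (8%) were higher and 0 were lower, with a median log2 ratio of 0.14 by the first and 0.07 by the second columns. Pfkp, the platelet-type phosphofructokinase, stood at 218 and 189.8 CPM at E15.5, against 107 and 83.2 CPM at E13.5, and Eno2, the neuronal enolase, at 114 and 52.1 CPM at E15.5, against 46.4 and 24.7 CPM at E13.5. Pfkp lost its call when TMM was computed over the 4 columns alone, and Eno2 when ratios were centred by GC content.

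The genes of the cleavage and polyadenylation machinery gave 1 call. Of 23 tested, 0 were higher and 1 was lower, with a median log2 ratio of -0.15 by the first and -0.21 by the second columns. The lower gene was Papolg, a nuclear poly(A) polymerase, at 3.68 and 1.61 CPM at E15.5, against 13.6 and 16.1 CPM at E13.5, and it stood at 25.04 and 24.7 CPM at E18.5 and 5.12 and 3.24 CPM at P0. Cpsf6, a subunit of the complex that favours distal sites, stood at 416 and 419 CPM at E15.5, against 433 and 395 CPM at E13.5. Of 35 neural RNA-binding protein genes, 1 was higher and 0 were lower, with a median log2 ratio of -0.06 by the first and -0.14 by the second columns. The higher gene was Celf6, at 39.99 and 34.9 CPM at E15.5, against 11.6 and 15.5 CPM at E13.5. Ptbp1, a splicing repressor of dividing cells, stood at 330.4 and 403 CPM at E15.5, against 394 and 477 CPM at E13.5, and Elavl4, a neuronal RNA-binding protein gene chosen after its values were seen, at 164 and 164 CPM at E15.5, against 256 and 242 CPM at E13.5.

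**Figure D2:**
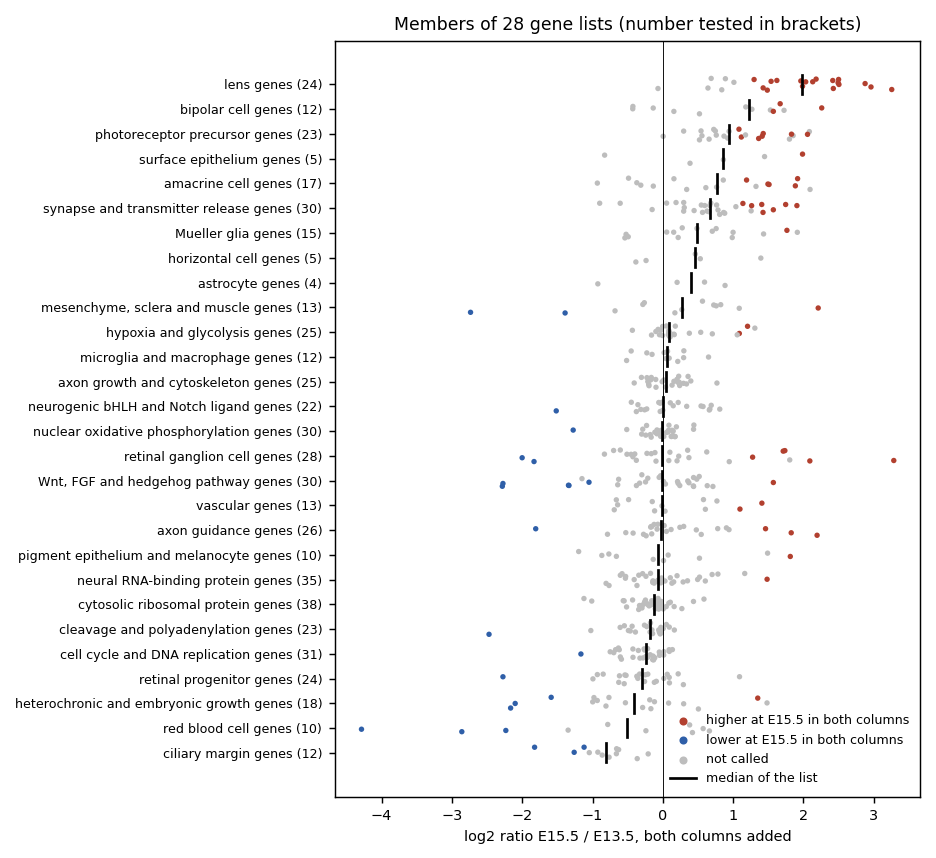
Each point is 1 gene of a list at its log2 ratio of E15.5 to E13.5 with the columns added, and black bars are list medians. Red points are higher and blue points lower at E15.5 in both columns; the lens list lies furthest to the right and the ciliary margin list furthest to the left.

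Genes of other eye tissues were among the largest differences. Of 24 lens genes tested, 18 (75%) were higher and 0 were lower, with a median log2 ratio of 1.68 by the first and 1.91 by the second columns. Without the lens list, 395 genes were higher at E15.5. The lens sum of E15.5, given above, lay between 758 and 488 CPM at E18.5 and 6226 and 6190.2 CPM at P0. It thus followed no order of the stages. Crygf, a gamma-crystallin, stood at 175 and 169 CPM at E15.5, against 24.2 and 10.9 CPM at E13.5, and its relative Crygd at 229 and 219 CPM at E15.5, against 42.3 and 36.1 CPM at E13.5. Crygb and Crygs stood at 217 and 224 CPM and at 39.99 and 32.8 CPM at E15.5, against 42.3 and 16.1 CPM and 6.05 and 6.88 CPM at E13.5. Cryba4, a beta-crystallin, stood at 262 and 291 CPM at E15.5, against 58.5 and 63.7 CPM at E13.5. Gamma-crystallins resemble each other closely, so the tags of a single one are less certain. The fibre cell genes Bfsp1, a beaded filament protein, and Lim2 and Mip, membrane proteins, have no such close copies. Bfsp1 stood at 115 and 119 CPM at E15.5, against 20.2 and 9.18 CPM at E13.5, Lim2 at 106 and 124 CPM at E15.5, against 20.2 and 22.9 CPM at E13.5 and Mip at 237 and 259 CPM at E15.5, against 49.9 and 41.9 CPM at E13.5, 5.37-fold (95% interval 4.56 to 6.36) for the last.

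Of 10 red blood cell genes, 0 were higher and 3 (30%) were lower, all of them embryonic globins. The median log2 ratio of the list was 0.04 by the first and -1.32 by the second columns, so the columns were unlike. The adult gene Hba-a1 held no tags in the second E15.5 column, as the last paragraph gives. Hbb-y stood at 46.3 and 45.2 CPM at E15.5, against 307 and 359.7 CPM at E13.5, 0.138 times the E13.5 level (95% interval 0.117 to 0.162), Hba-x at 34.2 and 32.8 CPM at E15.5, against 144 and 173 CPM at E13.5, and Hbb-bh1 at 0.526 and 1.07 CPM at E15.5, against 12.6 and 18.9 CPM at E13.5. The adult beta-globin gene Hbb-bs, chosen after its values were seen, stood at 294 and 311 CPM at E15.5, against 199.6 and 208 CPM at E13.5, and was not called. Globin genes resemble each other, so their tags are less certain as well. Of 13 mesenchyme, sclera and muscle genes, 1 was higher and 2 were lower, with a median log2 ratio of 0.27 by the first and 0.44 by the second columns. The lower ones were Col1a2, a fibrillar collagen, at 17.4 and 18.3 CPM at E15.5, against 49.4 and 43.6 CPM at E13.5 and Col3a1, another, at 2.105 and 0.538 CPM at E15.5, against 8.06 and 9.75 CPM at E13.5. The higher one was the muscle actin Acta1, with 8 and 20 tags at E15.5, against 4 and 2 at E13.5. Of 13 vascular genes, the pericyte gene Rgs5 and the VEGF receptor Flt1 were higher, at 19.99 and 15.6 CPM at E15.5, against 9.07 and 4.02 CPM at E13.5 for Rgs5 and 14.7 and 6.99 CPM at E15.5, against 6.55 and 3.44 CPM at E13.5 for Flt1, which lost its call when TMM was computed over the 4 columns alone. Of 10 pigment epithelium and melanocyte genes, Ttr, the transthyretin gene, was higher, at 31.04 and 10.2 CPM at E15.5, against 9.07 and 2.29 CPM at E13.5. Of 5 surface epithelium genes, the keratin Krt15 was higher, at 8.95 and 10.2 CPM at E15.5, against 2.02 and 2.87 CPM at E13.5, while Epcam, an epithelial adhesion molecule, stood at 13.7 and 15.1 CPM at E15.5, against 28.2 and 22.4 CPM at E13.5. None of the 12 microglia and macrophage genes and none of the 4 astrocyte genes tested were called. C1qb and Cx3cr1 of microglia stood at 45.2 and 43.01 CPM at E15.5, against 41.3 and 34.4 CPM at E13.5 and at 30.5 and 24.2 CPM at E15.5, against 26.7 and 26.4 CPM at E13.5. Gja1 and Fabp7 of the astrocyte list stood at 22.6 and 31.2 CPM at E15.5, against 54.9 and 46.5 CPM at E13.5 and at 56.8 and 34.4 CPM at E15.5, against 41.8 and 17.2 CPM at E13.5.

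The other genes among the 12 largest differences in each direction, at 20 CPM or more in both columns of the higher stage, belonged to no list. Myh14, a nonmuscle myosin heavy chain, stood at 27.4 and 23.6 CPM at E15.5, against 5.54 and 3.44 CPM at E13.5, and 72.3 and 83.3 CPM at E18.5. Hes2, a relative of the Notch effectors, stood at 41.6 and 55.9 CPM at E15.5, against 8.57 and 9.18 CPM at E13.5. Among the lower genes, Irs4, an adaptor of insulin signalling, stood at 3.16 and 4.301 CPM at E15.5, against 26.7 and 24.7 CPM at E13.5, 0.144 times the E13.5 level (95% interval 0.0762 to 0.255), and 2.42 and 1.86 CPM at E18.5. Sst, the neuropeptide somatostatin, stood at 37.9 and 43.01 CPM at E15.5, against 147 and 143 CPM at E13.5, and 5.66 and 7.91 CPM at E18.5. Grm2, a metabotropic glutamate receptor, stood at 10.5 and 8.602 CPM at E15.5, against 43.3 and 51.1 CPM at E13.5, and Th, the rate-limiting enzyme of dopamine synthesis, chosen after its values were seen, at 11.6 and 11.8 CPM at E15.5, against 38.8 and 35 CPM at E13.5. Stra6, the receptor for the retinol-binding protein, also chosen after its values were seen, stood at 43.1 and 45.2 CPM at E15.5, against 111 and 120.5 CPM at E13.5.

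Other lower genes stood higher again at E18.5. Pabpc4, a cytoplasmic poly(A)-binding protein, stood at 8.42 and 6.99 CPM at E15.5, against 40.3 and 41.3 CPM at E13.5, with 30.7 and 22.8 CPM at E18.5 and 8.96 and 7.12 CPM at P0. Ciao2a, which encodes an iron-sulphur cluster assembly factor, stood at 16.8 and 5.38 CPM at E15.5, against 57.95 and 45.9 CPM at E13.5, with 90.1 and 83.8 CPM at E18.5 and 17.3 and 18.8 CPM at P0. Hmgb2, a chromatin protein of dividing cells, stood at 6.31 and 6.45 CPM at E15.5, against 26.2 and 23.5 CPM at E13.5, Tiparp, a poly(ADP-ribose) polymerase, at 6.84 and 6.99 CPM at E15.5, against 23.7 and 25.2 CPM at E13.5, and Rnf130, a ubiquitin ligase, at 4.74 and 4.301 CPM at E15.5, against 21.2 and 20.6 CPM at E13.5. Tiparp lost its call when sites before A-rich transcript sequence were left out. At E18.5 these 3 genes stood at 23.8 and 16.3 CPM, 17.8 and 10.7 CPM and 11.7 and 13.5 CPM. Klhl9, an adaptor of a ubiquitin ligase, and Cbfb, a partner of Runx factors, were chosen after their values were seen to show the same order. Klhl9 stood at 8.42 and 6.45 CPM at E15.5, against 26.7 and 20.6 CPM at E13.5, with 48.5 and 50.7 CPM at E18.5 and 5.76 and 1.29 CPM at P0. Cbfb stood at 24.7 and 18.3 CPM at E15.5, against 60.98 and 51.6 CPM at E13.5, with 83.6 and 83.8 CPM at E18.5 and 28.1 and 29.8 CPM at P0.

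**Figure D3:**
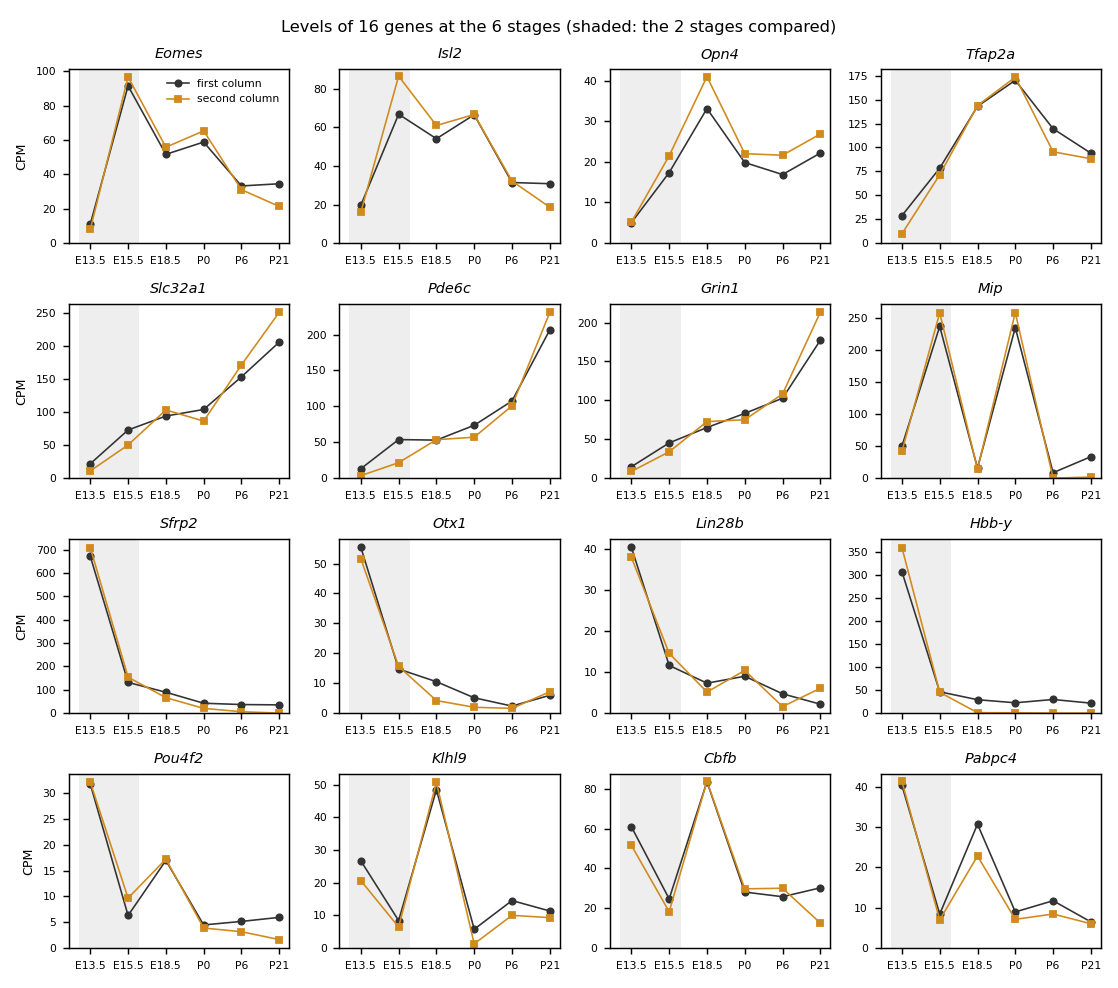
Levels of 16 genes in CPM are drawn over the 6 stages, with circles for the first and squares for the second column and the compared stages shaded. Eomes and Isl2 are highest at E15.5, Sfrp2, Otx1, Lin28b and Hbb-y stay low after E13.5, and Klhl9, Cbfb and Pabpc4 are low at E15.5 and P0 and higher at E18.5.

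Base composition before the poly(A) site moved with these differences. The median GC content of the 200 transcript bases before a gene's strongest site was 45.5% for the higher genes, 29.5% for the lower genes and 41.5% over all genes tested. A GC value was known for 87.2% of the genes tested, 83.8% of the higher and 84.9% of the lower ones. In the decile of genes with the lowest GC content, 20% to 30%, the median log2 ratio was -0.27 by the first and -0.31 by the second columns. Of its 1103 genes, 95 (8.61%) were lower and 15 (1.36%) higher. In the decile with the highest GC content, 54% to 78%, the medians were 0.13 and 0.15, and 4 of its 1003 genes were lower and 53 (5.28%) higher. When log2 ratios were centred within the deciles, 411 genes were higher, 378 of them among the 413, and 155 were lower, 148 of them among the 212. Genes without a GC value were left uncentred, so their calls could not be lost in this way. Pou4f2, Irx4, Slc6a4 and Acta1 were among the called genes without one. Of the 12 higher and the 12 lower genes with the largest differences at 20 CPM or more, 21 had a GC value and these 21 kept their calls, while Crygd, Hes2 and Ciao2a had none. That outcome was fixed in advance, because these genes were chosen for large ratios. The smallest absolute log2 ratio among them, by the column that moved less, was 1.73 for Sst. The decile medians ran only from -0.31 to 0.15, so centring could not remove these calls. The part that base composition had in the differences was not tested.

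**Figure D4:**
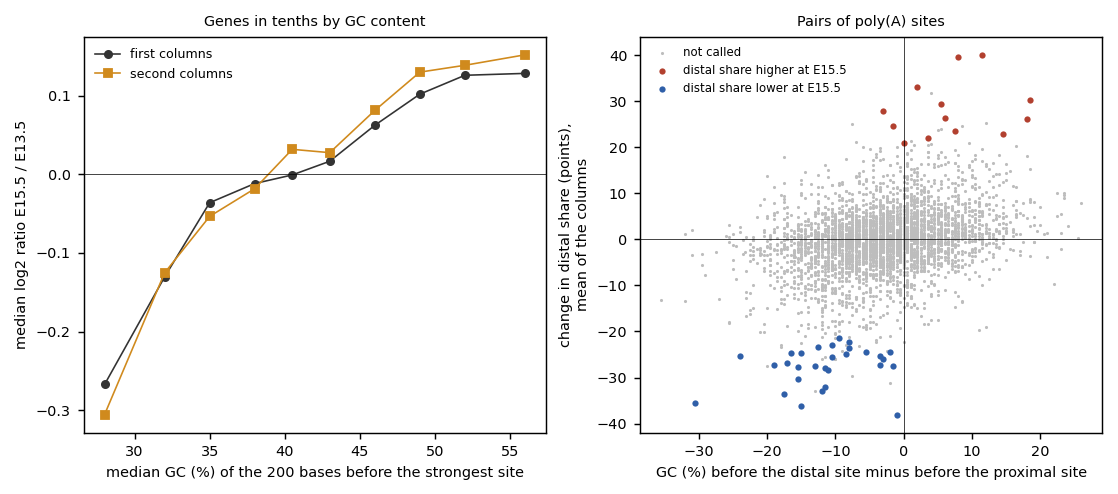
The left panel shows the median log2 ratio of E15.5 to E13.5 in deciles of genes by GC content before the strongest site, from -0.27 and -0.31 in the lowest decile to 0.13 and 0.15 in the highest. The right panel shows, for pairs of poly(A) sites, the change in distal share against the difference in GC content between the distal and the proximal site; the blue points, whose distal share was lower at E15.5, all lie left of zero.

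Site choice was read from genes with more than 1 site. For each of the 7034 genes with 2 or more sites, the pair with the most tags over E15.5 and E13.5 was taken, if each site held 5% or more of the tags of the gene and the pair held 20 or more tags in each of the 4 columns. This left 5086 pairs, 4271 of them in the same last exon. The distal share is the percentage of a pair's tags on the site further 3′. A pair was called if its share moved by at least 20 percentage points the same way in both columns. By this rule 24 pairs (0.472%) had a higher and 35 (0.688%) a lower distal share at E15.5, 59 (1.16%) in all. Without lens genes the counts were 24 and 35, and without the 124 genes of the mature retina 23 and 35. The median distal share over the pairs was 60.8% and 59.4% at E15.5, against 60.6% and 60% at E13.5, so that the middle of the distribution did not move with the stage beyond the difference between columns. Of the pairs, 39.3% moved by under 5 points in both columns. The distal share in the last called pair, Zfp326, moved by 20.02 points in the column where it moved less, and in the first pair not called, Qk, by 19.97 points.

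In 20 of the 24 pairs with a higher and 26 of the 35 with a lower distal share, the sites were placed in the same last exon. There the distal site adds sequence to the messenger RNA. Some distal sites placed this way lie up to 1000 bases past the annotated exon. The other called pairs use different last exons or an intronic site. The last 30 transcript bases up to and including the site's 3′ edge are shown for 7 genes, since these bases hold the poly(A) signal and show how the sites of a pair differ. Capitals mark the hexamer taken as the signal, and 12 hexamers were searched on the transcript strand in the 40 bases before the site. They were taken in a set order, from AATAAA, then ATTAAA, then AGTAAA, then TATAAA, then CATAAA, then GATAAA, and after these AATATA, then AATACA, then AATAGA, then ACTAAA, then AAGAAA, then AATGAA. A hexamer late in this order may stand unmarked beside an earlier one. The sequences are from GENCODE M21 transcripts, the coordinates are GRCm38 (mm10), and all lie in the 3′ UTR of the gene named. AATAAA, the canonical signal, was found before 56.8% of the 23137 sites with sequence. The first 4 genes had a higher and the last 3 a lower distal share at E15.5.
Ppp1cb proximal, chr5:32492723-32492752, plus strand: ttctcatttAGTAAAagttgtctaattgat
Ppp1cb distal, chr5:32493683-32493712, plus strand: ttgagcaAATAAAatgagttttttgattgg
Nr2f2 proximal, chr7:70353441-70353470, minus strand: tcagaaATTAAAatattatttgatatctga
Nr2f2 distal, chr7:70351949-70351978, minus strand: ATTAAAttataatttatgattttcaaagca
Zic1 proximal, chr9:91360500-91360529, minus strand: tcgtacgttATTAAAgattcttaaatctca
Zic1 distal, chr9:91358061-91358090, minus strand: gttATTAAAatgttattttgtgtcaacaga
Ptbp2 proximal, chr3:119718996-119719025, minus strand: gcggcacaATTAAAaattaattttctaaca
Ptbp2 distal, chr3:119718742-119718771, minus strand: cataAATAAAtccagatgctgtgaaaatgc
Ppat proximal, chr5:76915044-76915073, minus strand: ttattATTAAAttgctatattgaacctgaa
Ppat distal, chr5:76913330-76913359, minus strand: caaactaaTATAAAcctactttcttttttg
Clint1 proximal, chr11:45909271-45909300, plus strand: ccaactttagcaAATAAAaggttgtaacgg
Clint1 distal, chr11:45910594-45910623, plus strand: ctatataacattaaaacattcATTAAAacc
Tspan6 proximal, chrX:133891739-133891768, minus strand: tggaagtgctAGTAAAttgtaaatgaaata
Tspan6 distal, chrX:133891071-133891100, minus strand: ctttacacAATAAAtactgcatttcctcta

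Among pairs with a higher distal share at E15.5, Ppp1cb, the beta catalytic subunit of protein phosphatase 1, moved furthest by the column that moved less. With the columns added its move was 37.6 points, under those of Nr2f2 with 39.1 and Trpm1 with 38.4 points. Its distal share was 59.5% and 76.3% at E15.5, against 25.1% and 30.5% at E13.5, from 59 proximal and 111 distal tags at E15.5, against 267 and 102 at E13.5. With the columns added it was 65.3% (95% Wilson interval 57.9% to 72.04%) at E15.5, against 27.6% (23.3% to 32.4%) at E13.5. Its proximal site had 27% GC and the variant signal AGTAAA, and its distal site 38.5% GC and AATAAA. The share was back at 24.1% and 24.5% at E18.5 and high again, at 55.9% and 63.6%, at P0. Nr2f2, a nuclear receptor gene, had a distal share of 74.1% and 77.3% at E15.5, against 40.6% and 31.7% at E13.5, from 12 proximal and 37 distal tags at E15.5, against 82 and 47 at E13.5. The whole gene was called lower at E15.5, with the larger difference at the proximal site, and both sites carried ATTAAA.

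Stau2, a double-stranded RNA-binding protein that carries messenger RNA along neurites, had a distal share of 81.2% and 81.5% at E15.5, against 50% and 52.3% at E13.5. Its sites lie in different last exons 115489 bases apart, and the share stayed high at 68.6% and 78.02% at E18.5. Tfam, the mitochondrial transcription factor, had 56.1% and 53.8% at E15.5, against 26.7% and 27.6% at E13.5, and Tfdp2, a partner of E2F factors, 53.1% and 61.2% at E15.5, against 25.9% and 22.1% at E13.5. The distal share of Fundc1, a mitochondrial outer membrane protein, was 62.5% and 63.3% at E15.5, against 27.7% and 34.4% at E13.5. For Arf4, a small GTPase of Golgi transport, it was 50% and 63.2% at E15.5, against 17.1% and 20.6% at E13.5, and for Spindoc, a partner of the chromatin reader Spindlin, 57.4% and 49.2% at E15.5, against 24.6% and 21.7% at E13.5. In each of these genes both E15.5 columns lay above both E13.5 columns. By annotation the distal sites of Arf4 and Spindoc lie in introns, and that of Fundc1 lies downstream of its gene.

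Of the listed genes, Zic1 had a distal share of 79.2% and 78.6% at E15.5, against 54% and 51.04% at E13.5. Its proximal tags numbered 48 at E15.5, against 233 at E13.5, and its distal tags 179, against 258, so the difference was larger at the proximal site. Ptbp2, the neuronal relative of the splicing repressor Ptbp1, had 60.4% and 58.5% at E15.5, against 37.8% and 35.4% at E13.5, with the columns added 59.5% (95% Wilson interval 55.2% to 63.7%) at E15.5, against 36.7% (32.9% to 40.6%) at E13.5. Its sites lie 254 bases apart, and the share was 61.1% and 69.1% at P21. Trpm1, the channel of ON bipolar cells and melanocytes, had 80.5% and 23.5% at E15.5, against 37.2% and 3.33% at E13.5. The columns of E15.5 thus differed more than the stages did in either column.

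Among pairs with a lower distal share at E15.5, Suz12, a subunit of Polycomb repressive complex 2, had 36.4% and 30% at E15.5, against 76.7% and 65.7% at E13.5, from 28 proximal and 14 distal tags at E15.5, against 22 and 56 at E13.5. Its proximal site lies in an intron. Grm7, a presynaptic glutamate receptor, also had an intronic proximal site, with a distal share of 29.4% and 27.6% at E15.5, against 65% and 61.9% at E13.5. It stood at 54.9% and 52.6% at E18.5, 31.6% and 19.1% at P0 and 83.8% and 88.9% at P21. Ptprz1, a receptor phosphatase of progenitors and glia, had 21.7% and 15.4% at E15.5, against 53.2% and 60% at E13.5, where the proximal site ends a shorter transcript 48238 bases upstream.

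Ppat, the first enzyme of purine synthesis, had a distal share of 10.8% and 6.12% at E15.5, against 41.6% and 42.5% at E13.5, from 79 proximal and 7 distal tags at E15.5, against 87 and 63 at E13.5. With the columns added it was 8.14% (95% Wilson interval 3.999% to 15.9%) at E15.5, against 42% (34.4% to 50%) at E13.5. Its proximal site had 42% GC and ATTAAA, and its distal site 24.5% GC and TATAAA. Clint1, an adaptor of clathrin coats, had 26.1% and 24.1% at E15.5, against 68.4% and 52.8% at E13.5, with 56% GC before the proximal and 25.5% before the distal site. Tspan6, a tetraspanin, had 18.9% and 12.7% at E15.5, against 46.8% and 40.6% at E13.5, from 142 proximal and 27 distal tags at E15.5, against 166 and 130 at E13.5, and its share was 49.8% and 43.5% at E18.5 and 25% and 19.4% at P0.

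Med14, a subunit of Mediator, had a distal share of 30% and 40.9% at E15.5, against 61.4% and 75.4% at E13.5, and Tgoln1, a protein of the trans-Golgi network, 41.5% and 33.3% at E15.5, against 71.6% and 73.5% at E13.5. The listed gene Ebf1, a transcription factor of ganglion cells, had 47.6% and 39.02% at E15.5, against 74.6% and 59.7% at E13.5, and 78.4% and 80.8% at P0. In each of the 9 genes named with a lower distal share, both E15.5 columns lay below both E13.5 columns.

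**Figure D5:**
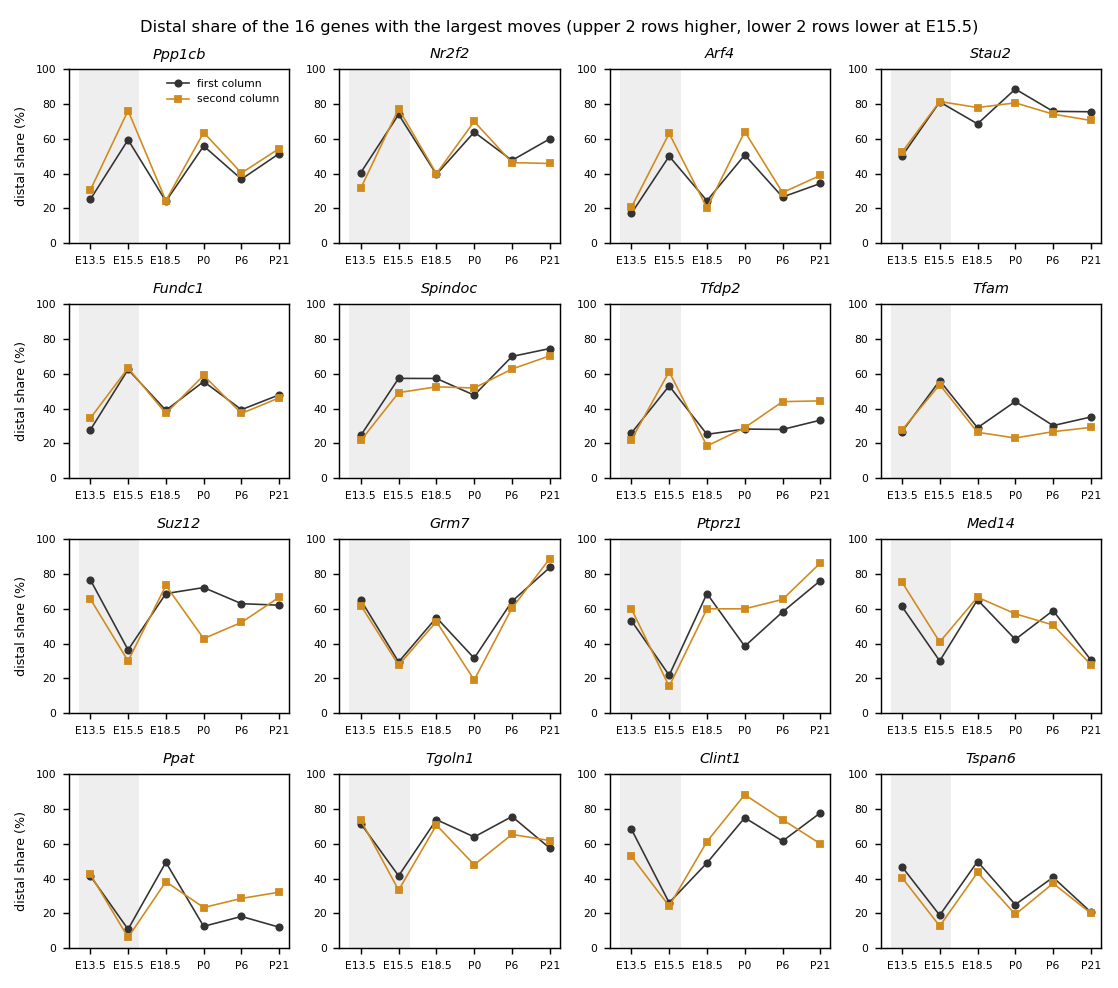
Distal shares in percent of the 8 genes with the largest higher and the 8 with the largest lower share at E15.5 are drawn over the 6 stages, with circles for the first and squares for the second column and the compared stages shaded. Ppp1cb, Arf4 and Fundc1 are high at E15.5 and again at P0, and Spindoc and Stau2 stay above their E13.5 level.

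The called pairs shared features that the rule did not use. The median GC content of pairs with a lower distal share at E15.5 was 40.5% before the proximal and 28% before the distal site, and in 29 of the 29 pairs with both values the distal site was poorer in GC. Among pairs with a higher distal share it was 29.5% before the proximal and 35.5% before the distal site, and in 10 of 13 the distal site was richer. Over 3813 pairs with both values the medians were 41.5% and 38%, and the distal site was poorer in 63.9%. In both directions the site that lost share was thus mostly the one with less GC before it. The median distal share of the 35 pairs was 36.4% and 30% at E15.5, against 65% and 60% at E13.5, and it was 64.7% and 61.0% at E18.5 and 47.5% and 42.9% at P0. For the 24 pairs it was 66.3% and 69.8% at E15.5, against 39.8% and 38.6% at E13.5, and 44.3% and 45.3% at E18.5 and 57.8% and 60.9% at P0. The rule used the E15.5 and E13.5 shares, so part of the return at the other stages can come from the choice of pairs alone. Among the 1749 pairs whose sites differed by at most 5 points in GC content, 5 had a higher and 6 a lower distal share. The part that base composition had in site choice was not tested.

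The kinds of location used differed little between the samples. Sites in 3′ UTRs took 85.6% and 85.8% of nuclear tags at E15.5, against 86.3% and 86.6% at E13.5. Sites in introns took 1.73% and 1.69% at E15.5, against 1.59% and 1.54% at E13.5. Sites within 1000 bases downstream of a gene took 7.70% and 7.66% at E15.5, against 7.56% and 7.49% at E13.5. Sites outside genes took 2.39% and 2.30% at E15.5, against 2.07% and 1.99% at E13.5. In each of these 4 kinds the columns of a stage lay closer to each other than to the other stage, by differences of under 1 percentage point. Of 1158 sites outside genes with at least 20 tags at 1 of the stages, 77 (6.65%) were at least 2-fold higher and 19 (1.64%) at least 2-fold lower at E15.5 in both columns. Among all genes tested the shares were 3.28% higher and 1.69% lower.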

How the data were processed

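The deposited table lists, per the file headers, the count of tags at each poly(A) site in 2 columns for every stage. The authors also deposited 1 score for each site over the whole series, which was not used here. BWA 0.7.5a-r405 and the build mm10 are named in the submitters' processing notes. The clustering of sites and the meaning of the columns are not given in the sources used here.

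The 32688 sites were placed on GENCODE M21 genes (GRCm38) by their 3′ edge, on the same strand, in the gene or within 1000 bases downstream. Genes took 97.0% to 97.6% of the tags at E15.5 and E13.5. Sites that resemble copies elsewhere were not separated. Tags were summed per gene and scaled by TMM over the 12 columns with edgeR 4.0.16 in R 4.3.3. Totals per column ran from 1626074 to 2496483 tags. The calls need at least 2-fold, or 20 percentage points of distal share, the same way in both columns. Intervals are exact conditional binomial (ratios) and Wilson (shares), at 95%. GC content was taken over 200 transcript bases before a site, with at least 100 known. The call rules were tried on simulated counts that held counting error only. The simulation had no spread between retinas, no difference between columns and no effect of base composition, so it says nothing about those.

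No significance test was run, since the columns of a stage are not labelled as replicates. The 28 gene lists and the genes compared were chosen with earlier results of these data known. Named genes were the 12 higher and the 12 lower with the largest smaller-of-columns log2 ratio and at least 20 CPM in both columns of the higher stage, up to 4 called members per list, filled to at least 2 by level, and the 8 pairs per direction with the largest moves plus up to 6 called list members. Other genes are said to have been chosen after their values were seen. Alternatives covered the columns, the scaling (DESeq2 1.42.0 size factors among them), thresholds, placement of sites, base composition and lens genes.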

Additional observations from a re-analysis of the deposited data

Results flagged for a closer look

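Sites outside genes and more than 1000 bases downstream of them did not enter the gene and site choice comparisons above. Of 1158 such sites with at least 20 tags at E15.5 or E13.5, out of 3576 in all, 77 (6.65%) were at least 2-fold higher and 19 (1.64%) at least 2-fold lower at E15.5 in both columns, as given with the kinds of location. Among all genes tested, 3.28% were higher and 1.69% lower, so the lower share was near that of genes. The largest higher one by the column that moved less, at chr5:5385392-5385409 on the plus strand, stood at 14.7 and 9.14 CPM at E15.5, against 2.02 and 0 CPM at E13.5, and at 12.9 and 11.6 CPM at E18.5. It held only 28 and 17 tags at E15.5, against 4 and 0 at E13.5. A lower one, at chr19:37224437-37224454 on the plus strand, stood at 6.31 and 4.30 CPM at E15.5, against 30.7 and 23.0 CPM at E13.5, and at 23.8 and 27.9 CPM at E18.5. Positions are GRCm38 (mm10). Whether these sites end unannotated transcripts or longer forms of nearby genes was not tested.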

How the results depend on the processing

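No called gene or pair named in the text turned its direction under the alternatives run. The counts depended most on the rule. Genes higher and lower at E15.5 numbered 786 and 397 in the first columns alone, 779 and 443 in the second columns alone and 750 and 360 with the columns added. They numbered 259 and 140 with at least 50 tags, 1006 and 665 at 1.5-fold and 107 and 45 at 3-fold. With at least 50 tags the calls of 14 named genes were lost, Sall3, Dlk1, Lin28a, Kcnj10, Fzd7, Hhip, Flt1, Col3a1, Acta1, Krt15, Tbx20, Drd2, Cnga3 and Neurog1, and at 3-fold those of 51. Pairs with a higher and a lower distal share numbered 63 and 82 in the first columns alone, 97 and 124 in the second columns alone and 39 and 73 with the columns added. They numbered 191 and 206 at 10 points, 3 and 6 at 30 points, 13 and 11 with at least 50 tags, and 5 and 6 among pairs whose sites differ by at most 5 points in GC content. The cause of these differences was not tested beyond the rule itself. Other scalings, site placements and filters kept the counts within 1.5 times. Centring by GC content, A-rich transcript sites left out, lens genes or genes of the mature retina left out of the count, TMM over 4 columns and the limit of 5 points of GC content were chosen after seeing the data. Leaving out sites before A-rich genomic sequence was planned and not run, as no genome was used here. No paired analysis was possible because each stage has 1 sample and no result comes from a test. Depth limits low genes, since 3 tags in a column correspond to 1.51 to 1.72 CPM at these stages.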

Other observations

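Meg3, an imprinted noncoding RNA of neurons, stood at 256 and 183 CPM at E15.5, against 83.7 and 47.6 CPM at E13.5, 3.29-fold (95% interval 2.85 to 3.804). Mir9-3hg, a host of the neural microRNA miR-9, stood at 21.6 and 18.3 CPM at E15.5, against 6.05 and 2.87 CPM at E13.5, and Mir124a-1hg, a host of the neuronal microRNA miR-124, at 190.5 and 97.3 CPM at E15.5, against 83.7 and 47.05 CPM at E13.5. The call of Mir124a-1hg was lost when ratios were centred by GC content. The dopamine receptors Drd1 and Drd2 stood at 17.9 and 11.8 CPM at E15.5, against 7.05 and 2.87 CPM at E13.5 for Drd1 and 12.1 and 7.53 CPM at E15.5, against 2.52 and 0.574 CPM at E13.5 for Drd2, and Chrnb3, a subunit of nicotinic receptors, at 17.9 and 15.6 CPM at E15.5, against 6.05 and 0.574 CPM at E13.5. Hs3st2, a heparan sulphate sulphotransferase, stood at 14.2 and 15.1 CPM at E15.5, against 1.51 and 1.15 CPM at E13.5, and Megf11, a receptor that spaces amacrine and horizontal cells, at 23.7 and 12.9 CPM at E15.5, against 3.02 and 0.574 CPM at E13.5. Cdkn1a, the cell cycle inhibitor p21, stood at 58.4 and 50 CPM at E15.5, against 27.2 and 20.1 CPM at E13.5, and its call was lost when ratios were centred by GC content. All of these genes were chosen after their values were seen.

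In a few genes 1 column of a sample lacked most of the tags that its other column held. Rpl32, a ribosomal protein gene, had 838 and 41 tags at E15.5, against 873 and 883 at E13.5. Rps15, another, had 172 and 0 tags at E15.5, against 184 and 187 at E13.5, and the adult alpha-globin gene Hba-a1 had 92 and 0 tags at E15.5, against 109 and 123 at E13.5. At E13.5 the second column was the one without tags for Ptma, which encodes prothymosin alpha, with 283 and 326 tags at E15.5, against 347 and 1 at E13.5, and for Ftl1, which encodes ferritin light chain, with 126 and 87 tags at E15.5, against 158 and 0 at E13.5. None of these 5 genes was called, since the columns differ, but each would pass in the second columns alone. They were chosen after their values were seen.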
